A study of Sus scrofa with 8 samples.

Results

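The antioxidant and thiol redox enzymes examined here were SOD1, SOD2, CAT, GPX1, TXN, TXN2, PRDX1, PRDX2, PRDX3 and HAGH, taken from an array comparison of skeletal muscle between pigs fed a high energy diet and pigs fed a low energy one. A spot was assigned to a gene when the platform annotation gave that gene as its single symbol, which left 7 of the 10 genes and 16 of the 9984 spots. SOD2, CAT and PRDX3 had no such spot and were not analysed here. GPX1 had 4 spots in 2 neighbouring pairs and each other gene had 1 pair. Each of 8 arrays carried cDNA from the muscle of 1 high energy and of 1 low energy sample in different dyes, called 5 and 3 in the sample names and read here as Cy5 and Cy3. The samples formed 4 couples: high energy sample 40 against low energy sample 49, 41 against 61, 40 again against 142, and sample ae against be. Every couple was hybridised once with high energy in dye 5 and once with high energy in dye 3. The sources used here give no breed, age, muscle or length of feeding, nor whether a sample was 1 animal or a pool, so the error measures the spread between these samples, which may be technical.

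These enzymes share the work of keeping a muscle cell reduced. Superoxide that leaks from the respiratory chain or from membrane oxidases is turned into hydrogen peroxide by superoxide dismutases, SOD1 in the cytosol and SOD2 in the mitochondrial matrix. Catalase, glutathione peroxidases and peroxiredoxins then remove the peroxide, the peroxidases at the cost of glutathione and most peroxiredoxins at the cost of thioredoxin. Thioredoxins are small proteins with a pair of reactive cysteines that are reduced again by thioredoxin reductase with NADPH.

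Values are log2 ratios, and the likely direction is high over low energy: channel 2 was labelled high energy and channel 1 low energy throughout, and low energy was the stated reference of the design. No source states the direction of the ratios themselves. Mean ratios of genes therefore come with a turned value, obtained by changing the sign of the 4 arrays that had high energy in dye 3, which is the result if the ratios were instead dye 5 over dye 3. Between 77.6% and 94.4% of spots had a value on an array, and the SD of the ratios of an array was 0.341 to 0.724. The largest SD was that of couple 3 with high energy in dye 5, followed by 0.700 for couple 4 with high energy in dye 3. All 12 markers of muscle fibres looked for, among them ACTA1, CKM, MYH7 and TTN, had a value on all 8 arrays. The number of couples, which is 4, limits the precision of every mean below.

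No gene of the set passed the test. In limma's fit of the couple means, 0 of the 6 genes measured in at least 3 couples had a Benjamini-Hochberg adjusted p under 0.05, and 0 of all 5025 features did (0%). At an unadjusted p under 0.05, 1 of the 6 genes was counted, HAGH, against 3.78% of all features. For the turned value 0 of the 6 genes were below that p, against 2.65% of all features. SOD1, TXN and HAGH, 3 of the 6 genes, had 1 sign in all 4 couples, as did 16.6% of the features measured in 4 couples. The ratios of the 6 genes ran from -0.24 for SOD1 to 0.29 for HAGH, 4 below 0 and 2 above, and all 6 adjusted p-values were 0.996. Their median was -0.058 (turned -0.075), against -0.012 (turned -0.0085) for all features, of which 53.6% lay below 0.

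**Figure D1:**
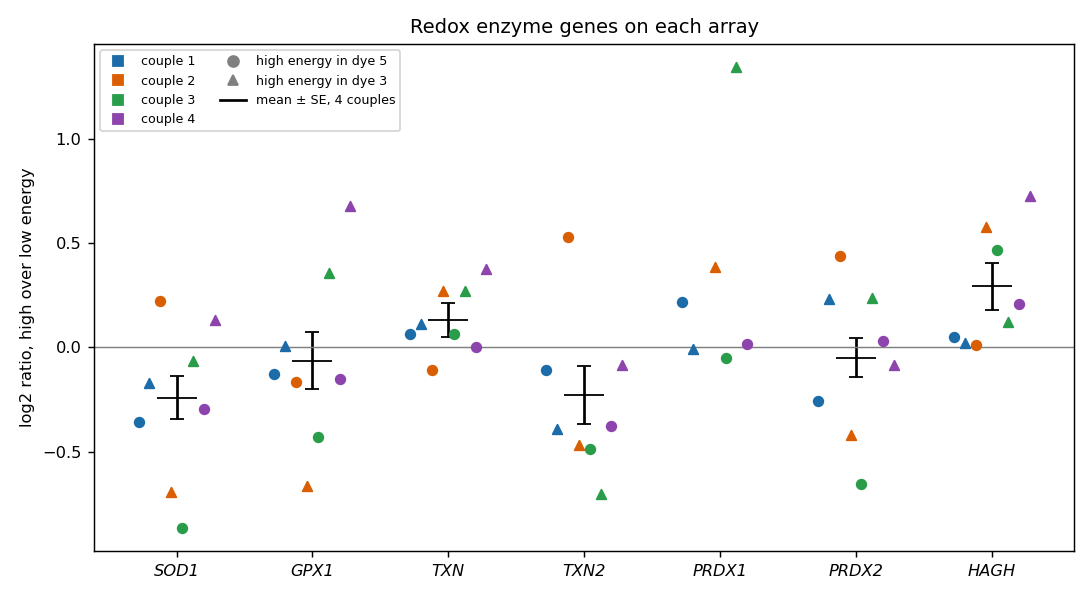
Log2 ratio (high over low energy) of each gene on each of 8 arrays, averaged over its spots, coloured by couple, with circles for high energy in dye 5 and triangles for dye 3; black bars give the mean ± SE over 4 couples. HAGH lay above 0 on 8 arrays, SOD1 below 0 on 6 and TXN2 below 0 on 7, while PRDX1, with 6 arrays, was not tested.

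SOD1, the copper and zinc dismutase of the cytosol, had a mean ratio below 0 in every couple. Couples 1 to 4 had log2 ratios of -0.36, 0.22, -0.87 and -0.30 with high energy in dye 5. They had -0.17, -0.69, -0.07 and 0.13 with high energy in dye 3. The arrays below 0 were 6 of 8, and the 2 above 0 belonged to different couples and different dye orientations. Averaged over both dyes, the couples had -0.26, -0.24, -0.47 and -0.08, so couple 3 was the lowest and couple 4 the closest to 0. The mean was -0.24 ± 0.10 (SE, 4 couples), which is 0.85-fold, with a 95% interval of 0.71-fold to 1.01-fold. The turned value was -0.03, and the unadjusted p was 0.0643 (limma, adjusted p = 0.996). Of all features measured in 4 couples, 9.12% likewise lay below 0 in all 4. Tested on their own, the 2 spots of SOD1 had -0.25 and -0.23, although on single arrays they differed by 0.57 on average.

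GPX1, the selenium-dependent glutathione peroxidase of the cytosol, showed no direction that held across couples. The dye 5 arrays of couples 1 to 4, named by the dye of the high energy sample, had -0.13, -0.16, -0.43 and -0.15, all below 0 and close together except for couple 3. The spots averaged in them were further apart, from -0.63 to 0.24 in couple 1 and from -0.72 to 0.36 in couple 4. The dye 3 arrays had 0.01, -0.66, 0.36 and 0.68, on both sides of 0 and far apart. Only 25 of the 32 possible spot values were present, so the mean of the gene rests on different spots on different arrays. The value of 0.68 came largely from 1 spot at 1.99 whose ratio reduces to whole numbers no larger than 4, while the other 3 spots on that array had 0.03, 0.42 and 0.27. The value of -0.66 likewise averaged 1 spot at -1.39, whose ratio reduces to whole numbers no larger than 13, and 1 spot at 0.06. The mean was -0.07 ± 0.14 (turned -0.14, adjusted p = 0.996), with an interval of 0.75-fold to 1.21-fold. Without couple 2 it was 0.08, and without couple 4 it was -0.21.

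PRDX1 and PRDX2 are peroxiredoxins of the cytosol that reduce peroxide with electrons from thioredoxin, and PRDX2 is also among the most abundant proteins of red blood cells. PRDX1 had values on 6 arrays, so both dye orientations were present in 2 couples, too few for the test. Its gene values were 0.22, -0.05 and 0.01 with high energy in dye 5 in couples 1, 3 and 4. On the dye 3 arrays they were -0.01, 0.38 and 1.34 in couples 1, 2 and 3. The highest of these was the mean of 1 spot at 2.93 and its neighbour at -0.24 on the same array. The 2 spots of PRDX1 had opposite signs on 5 of the 6 arrays, and their mean difference of 1.05 was larger than that of 97.0% of all neighbouring pairs of spots with a shared symbol.

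PRDX2 had log2 ratios of -0.26, 0.44, -0.66 and 0.03 in couples 1 to 4 with high energy in dye 5. Swapped, the same couples had 0.23, -0.42, 0.24 and -0.09. The arrays of a couple thus had opposite signs in 4 of 4 couples, and which array was the higher changed from couple to couple. Neither reading of the direction gave a ratio away from 0: the mean was -0.05 ± 0.094 and the turned value 0.01 (adjusted p = 0.996), with an interval of 0.82-fold to 1.14-fold. The couple means were -0.01, 0.01, -0.21 and -0.03, of which couple 3 stood apart.

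**Figure D2:**
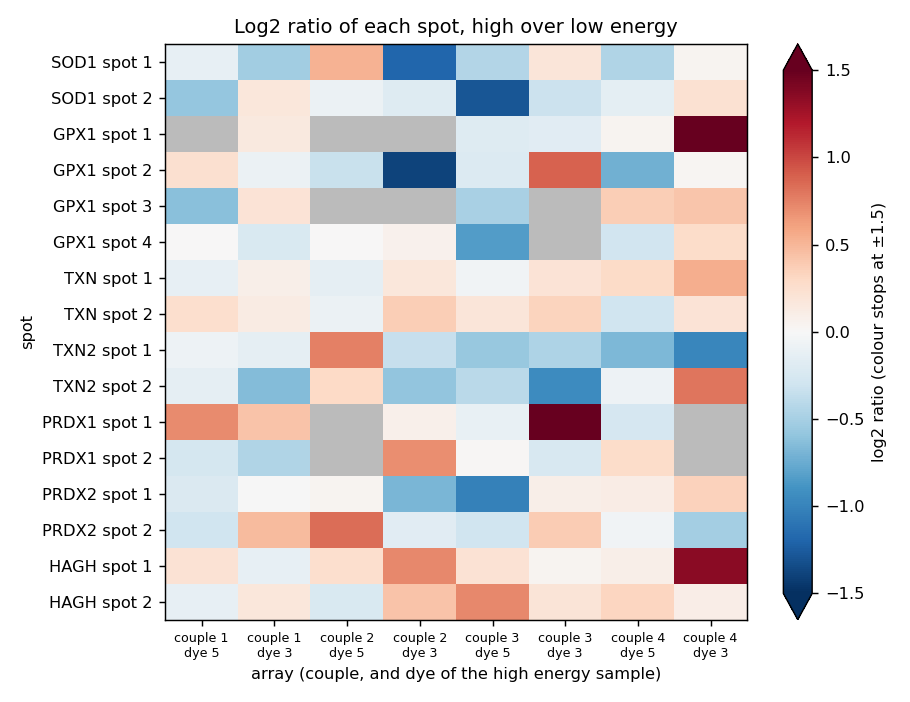
Log2 ratio (high over low energy) of each of the 16 spots on the 8 arrays, blue below 0 and red above, with colour stopping at ±1.5 and missing values in grey. The spots of TXN are pale throughout, while single dark cells in GPX1 (1.99) and PRDX1 (2.93) are not shared by the neighbouring spot.

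TXN, the thioredoxin of the cytosol and nucleus, had a mean ratio slightly above 0 in every couple and was the most evenly measured gene of the set. Couples 1 to 4 had 0.06, -0.11, 0.06 and 0.00 on the dye 5 arrays. They had 0.11, 0.27, 0.27 and 0.38 on the dye 3 arrays, all above 0. The fitted mean was -0.01 within the dye 5 arrays and 0.27 within the dye 3 arrays. The couple means, which balance the dyes, were 0.09, 0.08, 0.17 and 0.19. Their mean was 0.13 ± 0.083 (adjusted p = 0.996), and the turned value, which is the dye effect under the likely direction, was of about the same size at -0.14. The interval was 0.95-fold to 1.26-fold. Of all features measured in 4 couples, 7.47% also lay above 0 in all 4.

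TXN2, the thioredoxin of mitochondria, lay below 0 on 7 of 8 arrays. Its dye 5 arrays had -0.11, 0.53, -0.49 and -0.38 in couples 1 to 4. Its dye 3 arrays had -0.39, -0.47, -0.70 and -0.09. The array above 0 was that of couple 2 in dye 5, where both spots were positive, at 0.76 and 0.30. Its swapped array had -0.34 and -0.60 in the same spots, and couple 2 averaged 0.03, while couples 1, 3 and 4 had -0.25, -0.60 and -0.23. The mean was -0.23 ± 0.14 (turned 0.16, adjusted p = 0.996), or 0.85-fold with an interval of 0.67-fold to 1.08-fold. Without couple 3 the mean was -0.15. Of the 16 genes of mitochondrial content tested beside it, such as CS, the VDAC channels and subunits of the respiratory complexes, 7 lay above 0 and 9 below, with a median of -0.02 and 0 of 16 past the threshold.

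HAGH, also called glyoxalase II, splits lactoylglutathione, which glyoxalase I makes from methylglyoxal and glutathione, into lactate and free glutathione. HAGH is made both for the cytosol and for mitochondria. Its log2 ratios in couples 1 to 4 were 0.05, 0.01, 0.47 and 0.21 with high energy in dye 5. They were 0.02, 0.57, 0.12 and 0.72 with high energy in dye 3. HAGH was above 0 on 8 of 8 arrays, which 2.25% of the features measured on 8 arrays matched in either direction, but 3 of these values were within 0.05 of 0. Couple 1 averaged 0.04, and couples 2, 3 and 4 had 0.29, 0.29 and 0.46. The mean was 0.29 ± 0.11, or 1.23-fold with an interval of 1.01-fold to 1.49-fold, and the turned value was -0.13. The unadjusted p was 0.0435 and the adjusted p 0.996 in limma. Without couple 1 the unadjusted p was 0.0183, and without couple 2, 3 or 4 it was 0.124, 0.0727 or 0.159. By dye, the fitted mean was 0.17 with high energy in dye 5 and 0.42 with high energy in dye 3. The 2 spots had 0.40 and 0.19 when tested on their own, and they had opposite signs on 3 of the 8 arrays. The highest array value, 0.72 in couple 4, was the mean of 1 spot at 1.35 and its neighbour at 0.10. The 0.47 of couple 3 was the mean of 0.21 and 0.72.

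**Figure D3:**
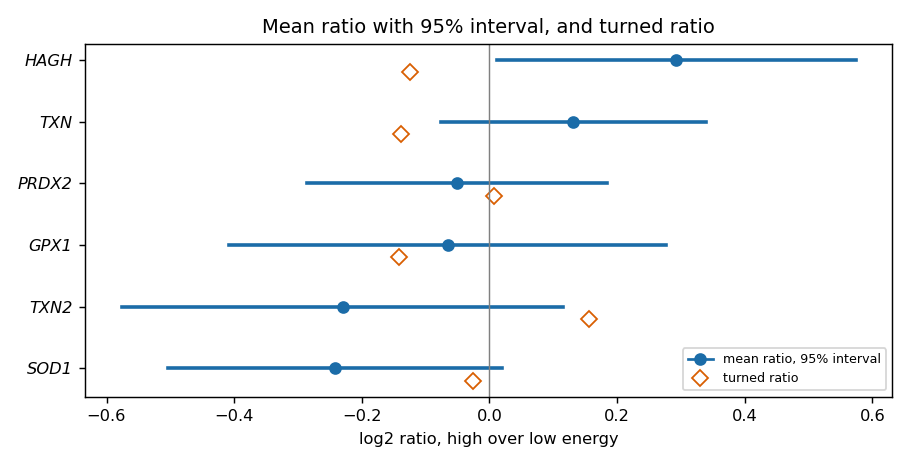
Mean log2 ratio (high over low energy) over 4 couples with its 95% interval from limma (blue) and the turned ratio (orange) for the 6 genes tested. The interval of HAGH, without adjustment for the 5025 features, starts at 0.01, the other 5 intervals include 0, and the turned ratio of TXN is as large as its mean ratio.

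Differences between the log2 ratios of 2 genes of the same arrays were formed for all 15 pairs of the 6 genes tested. None passed a test under the likely direction, and the turned differences were not tested. TXN minus TXN2 was above 0 in 4 of 4 couples under the likely direction, with 0.39 ± 0.29, but turned it was -0.28 ± 0.28 (SD, n = 4 each). SOD1 minus HAGH was -0.53 ± 0.19 and turned 0.03 ± 0.54 (SD, n = 4 each). TXN2 minus HAGH was -0.53 ± 0.31 and turned 0.24 ± 0.37 (SD, n = 4 each). The sign of each of these differences thus changed with the reading of the direction. GPX1 minus HAGH kept its sign, with -0.33 ± 0.27 and turned -0.07 ± 0.45 (SD, n = 4 each). SOD1 minus PRDX2 kept it too, with -0.20 ± 0.098 and turned -0.01 ± 0.18 (SD, n = 4 each). The turned values of all these pairs were no larger in size than their SD. GPX1 minus TXN2 had the turned value of largest size among the 15 pairs, -0.31 ± 0.13. Under the likely direction GPX1 minus TXN2 was 0.20 ± 0.46 (SD, n = 4 each). SOD1 minus TXN2 was 0.00 ± 0.19, with couples on both sides of 0, and turned -0.21 ± 0.21 (SD, n = 4 each). An exact sign-flip test over 4 couples, two-sided, cannot go below p = 0.125, and it takes the couples as independent although couples 1 and 3 share high energy sample 40. That value was reached by 8 of the 15 pairs, with an adjusted p of 0.234 over the 15. The 15 pairs reuse 6 genes and are not independent. Each of the 8 pairs holds SOD1, TXN or HAGH, the genes with 1 sign in all 4 couples. The share among other pairs of genes was not computed.

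On single arrays, the neighbouring spots of each gene tested differed on average by more than the size of its mean ratio. The 2 measures are unlike, since the mean ratio averages over spots, arrays and couples. Over all 3305 neighbouring pairs of spots with a shared symbol, the 2 spots differed by 0.400 (median of the mean absolute difference over arrays), and they had opposite signs in 43.4% of the readings. TXN had 0.243, with 23.2% of all pairs below it, and SOD1, TXN2, PRDX2 and HAGH had 0.574, 0.539, 0.486 and 0.442. The 2 pairs of GPX1 had 0.806 and 0.441. Across all such pairs, Pearson's r between the 2 spots was 0.04 to 0.24 on the 8 arrays, as a description across genes that share an array. The deposited ratios do not hold the level of a spot. Most of them are, however, ratios of 2 whole numbers, and after cancelling common factors the larger number sets a floor for the brightness; it is called the recovered signal. Of the 16 values of TXN, 14 had a log2 recovered signal of at least 9 or none recoverable, and those with none count as bright. SOD1 and TXN2 had 5 such values of 16 each, PRDX2 had 6 of 16, HAGH 7 of 16, GPX1 4 of 25 and PRDX1 1 of 12. Ratios of the set larger than 1 in size numbered 7, and 6 of them had a log2 recovered signal under 9. The median size of the ratios of the set was 0.241 under that value and 0.306 at or above it, where recovered, and 64.1% of the values of the set lay under it. Over all spots, 5.87% of the values under it and 4.12% of the recovered values at or above it were larger than 1. With the values under it left out, TXN and HAGH were still measured in enough couples to test. They had 0.10 in 4 couples and 0.37 in 3 couples, with adjusted p-values of 0.897 and 0.347 over the 1472 features left.

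**Figure D4:**
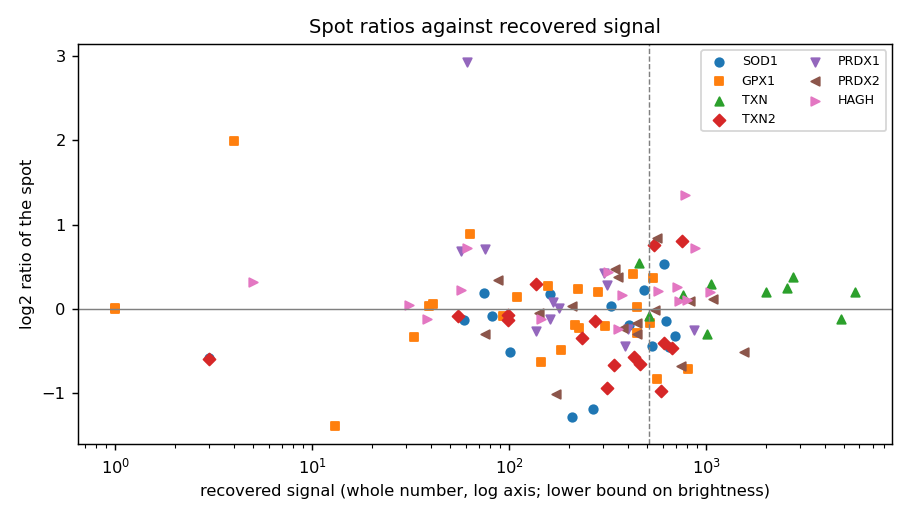
Log2 ratio of each measured spot of the 7 genes on each array against its recovered signal on a log axis, with a log2 of 9 as a dashed line; 6 values of TXN with no recoverable signal are not drawn. The values of 1.99 in GPX1 and 2.93 in PRDX1 lie left of the line, and TXN stays within 0.55 of 0.

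From a list of 88 genes for glutathione, thioredoxin, metal binding and NADPH supply, 40 had a spot and 37 were tested. Of these, 12 lay above 0 and 25 below, with a range of -0.16 to 0.14 and a median of -0.03, and 0 of 37 passed at an adjusted p under 0.05 in limma. At an unadjusted p under 0.05 the count was also 0, against 3.78% of all features. Turned, the 37 genes ran from -0.32 to 0.49, with 18 above 0, 19 below and 3 at an unadjusted p under 0.05, against 2.65% of all features.

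Among the genes of this list with the smallest p above 0, GSTK1, a glutathione transferase of mitochondria and peroxisomes, had 0.14 ± 0.13 (turned -0.32). GSR, the reductase that regenerates glutathione, had 0.10 ± 0.097 (turned -0.05). GSTO1, an omega class transferase, had 0.10 ± 0.11 (turned -0.06), and MSRB2, a methionine sulfoxide reductase, had 0.05 ± 0.087 (turned -0.09). Each ratio was close to or below its own SE. MSRB2 lay below 0 on 6 of its 8 arrays, with 0.50 on the array of couple 4 with high energy in dye 3. GSTK1 lay below 0 in couples 3 and 4, with 1.11 on the array of couple 2 with high energy in dye 3. On the lower side, GPX4, the peroxidase that reduces lipid peroxides in membranes, had -0.16 ± 0.14 (turned 0.13), with -0.58 in couple 3 and 0.06 in couple 2. MT2A, a metallothionein that binds zinc and copper, had -0.11 ± 0.090 (turned 0.11) and was below 0 in 4 of 4 couples. Its couple 4 had -0.01, however, and 4 of its 8 arrays lay above 0. Of all features measured in 4 couples, 9.12% were likewise below 0 in all 4. IDH2, which makes NADPH in mitochondria, had -0.11 ± 0.10 (turned 0.05). TXNRD1, the cytosolic reductase of thioredoxin, had -0.10 ± 0.097 in 3 couples (turned -0.13), and couple 1 did not enter that value because 1 of its arrays was missing. All of these genes had an adjusted p of 0.996.

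**Figure D5:**
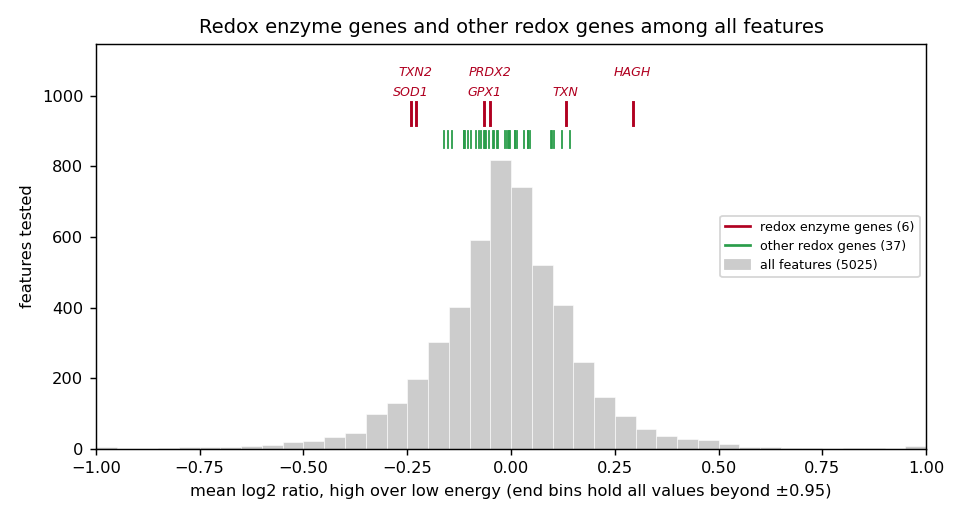
Number of features by mean log2 ratio (high over low energy) in bins of 0.05, with the 6 redox enzyme genes marked in red and 37 other redox genes in green. The red marks run from -0.24 (SOD1) to 0.29 (HAGH), and the green ones from -0.16 to 0.14.

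Red cell, immune and other markers were read beside these genes because red cells hold much PRDX2 and SOD1. Of 14 blood markers 4 were measured: HBA1 had -0.03 ± 0.10 (turned 0.03), HBA2 0.02 ± 0.12 (turned 0.10), HBB 0.04 ± 0.10 (turned 0.09) and AHSP -0.27 ± 0.16 (turned 0.17). Their mean ran from -0.40 on the array of couple 4 with high energy in dye 3 to 0.40 on that of couple 2 with high energy in dye 5. On the second of these arrays SOD1, TXN2 and PRDX2 had their highest values, while HBA1 itself had -0.10. The highest of the 4 blood markers there was AHSP at 0.97, with 0.40 for HBA2 and 0.31 for HBB. On the first, SOD1 had 0.13 and TXN2 -0.09, each its second highest value, and PRDX2 had -0.09. The part of blood in those values was not tested. Of 12 immune markers 6 were tested, 3 on each side of 0, and of the fibroblast, adipocyte and vessel markers 3, 1 and 2 were tested. The 12 muscle fibre markers were all tested, and 3 lay above 0 and 9 below. They ran from -0.32 to 0.37, with a median of -0.06 (turned 0.02). At an unadjusted p under 0.05 in limma, 1 of them above 0 and 2 below 0 were counted, against 3.78% of all features. None of these marker genes passed at an adjusted p under 0.05 in limma. In whole muscle, fewer cells of a type and less RNA per cell cannot be told apart.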

How the data were processed

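Muscle cDNA of high and low energy pigs was hybridised on 8 arrays with 2 colours, in 4 couples with the dyes swapped. The authors deposited log2 ratios. The unit was read from the values, since most are base 2 logarithms of ratios of whole numbers (85.9% to 97.1% of an array's values, with a lesser number under 5000). The sources used here do not say how the background was corrected, spots were filtered and ratios were normalized, and medians of -0.0071 to 0.0115 show that the arrays were already centred near 0.

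Arrays were centred on their medians, spots with 1 symbol were averaged, spots without 1 symbol were kept by number, and the 2 arrays of a couple were averaged to 1 replicate. A feature needed both dye orientations in at least 3 couples. The test was lmFit and eBayes of limma 3.58.1 (R 4.3.3) against 0, two-sided, blocking on the high energy sample with the correlation set to 0.5, because couples 1 and 3 share sample 40. Both therefore weigh less in the mean. P-values were adjusted over all 5025 features. The fit was tested on simulated data with log2 changes of 1 and 2, at the same correlation of 0.5. These changes are larger than the mean ratio of any gene of the set, so the simulation cannot tell whether ratios of that size would be found. Probes were annotated to human genes, and all 7 symbols with a spot also occur in the pig RefSeq table. Recovered signals come from continued fractions.

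The genes, lists and tests were chosen with earlier results of these data known. All measured genes of the set are named, with 4 other redox genes on each side of 0 by smallest p, and at most 4 markers of a list. Differences between pairs of genes were added after the values were seen.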

Additional observations from a re-analysis of the deposited data

Results flagged for a closer look

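Among the 4 couples, the PRDX2 ratio of couple 3 stood far from the other 3, at -0.21 against -0.01, 0.01 and -0.03. Among the 4 arrays with high energy in dye 5, GPX1 in couple 3 stood apart, at -0.43 against -0.13, -0.16 and -0.15. Both flagged values draw on the array of couple 3 with high energy in dye 5, whose ratios had the largest SD of all arrays (0.724). On it SOD1 and PRDX2 also had their lowest values, -0.87 and -0.66. The part of that spread in the flags was not tested. For the 6 genes tested, 18 groups of 4 values were screened, and by its 95% critical value the rule flags about 1 in 20 groups by chance. Leaving out couple 3 gave a mean of -0.01 for PRDX2.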

How the results depend on the processing

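In 12 alternative settings and in the 4 that leave out 1 couple, 0 of the measured redox enzyme genes and 0 of all features passed the threshold in limma. At an unadjusted p under 0.05, the count over all features was 190 of 5025 (3.78%) in the main setting, 310 (6.17%) with couples taken as independent and 353 (7.02%) with all 8 arrays and the couple as a replicate block, where the correlation within couples was -0.036. It was 108 of 5687 (1.90%) with high energy in dye 5 only, 106 of 1472 (7.20%) with log2 recovered signals of at least 9, and 107 to 284 of 5025 without a couple. With independent couples, SOD1 joined HAGH, with an unadjusted p of 0.0274 and an adjusted p of 0.784 in limma. Couples 1 and 3 correlated at 0.064 across features, against the 0.5 assumed. SOD1 kept its sign in all 16 alternatives computed for it, between -0.31 and -0.03, and with the replicate block it had -0.26 (adjusted p = 0.735). HAGH was above 0 in 16 of 17, the exception being the turned value of -0.13. The other turned values of opposite sign were -0.14 for TXN, 0.16 for TXN2 and 0.0077 for PRDX2. With high energy in dye 5 only, TXN had -0.0073, and in dye 3 only GPX1 had 0.076. The second spot of PRDX2 alone had 0.042. Leaving out 1 couple gave -0.21 to 0.085 for GPX1, -0.34 to -0.15 for TXN2 and 0.22 to 0.35 for HAGH. The median of the set was 0.076 with high energy in dye 3 only, where PRDX1 entered, 0.23 with log2 recovered signals of at least 9, where TXN and HAGH alone were left, and -0.13 to 0.0044 without 1 couple. The causes were not tested. Brightness is known here as a floor alone, so its limit on each gene was not ranked.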
